A study of Mus musculus with 15 samples.

Results

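The genes described here encode the constitutive proteasome of the mouse small intestinal epithelium, with its caps, its inhibitor and its assembly chaperones. They were taken from the table of counts of sorted cells as every gene whose symbol is Psma, Psmb, Psmc, Psmd, Psme, Psmf or Psmg followed by a number, without the immunoproteasome subunits Psmb8, Psmb9 and Psmb10. The rule found 45 of 24594 genes, and 43 of these 45 had enough counts to be tested among 13314 genes. The word constitutive fits most of them by background knowledge and not all. Psma8 and Psmb11 are known from testis and thymus, Psme1 and Psme2 are interferon-inducible, and the Psmg genes, Psmd5, Psmd9 and Psmd10 are chaperones that leave the finished particle.

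The series compares fetal and adult proximal small intestinal epithelium and holds 15 RNA-seq libraries in 5 groups of 3. The 6 libraries used here are the fetal and the adult cells that were sorted and profiled directly. Fetal cells came from C57Bl/6J mice at E16.5, late in gestation, and were sorted as EpCAM+/DAPI-/CD31-/CD45- cells of the proximal intestine, and the labels give no genotype for them. Adult cells came from Wildtype C57Bl/6J mice and were sorted from crypts of the proximal 20% of the small intestine as EpCAM+/DAPI-/Lin-/CD24mid cells. Neither group was treated. The sort gate changed together with age, and the library kit is given in the labels for the adult cells only, so the effects of age, gate and kit cannot be told apart. The labels do not say that the replicates came from separate animals, and p-values then measure only the spread between these samples, which may be technical. The 9 organoid libraries were not used here.

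The proteasome is the large protease of the cytoplasm and nucleus that degrades proteins tagged with ubiquitin. Its barrel, the 20S core, is a stack of rings of alpha and beta subunits, and the active sites lie on the beta subunits Psmb5, Psmb6 and Psmb7. The 19S particle docks on the barrel, recognises ubiquitin, removes it and unfolds the substrate with a ring of ATPases. In cells exposed to interferon, Psmb8, Psmb9 and Psmb10 take the place of the active beta subunits, and the Psme1 and Psme2 cap can bind the barrel in place of the 19S particle.

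Most proteasome genes lay close to their adult level in the fetal cells. Of the 43 members tested, 13 were called between the groups at an adjusted p under 0.05 (edgeR quasi-likelihood test, Benjamini-Hochberg over all 13314 genes). This is 30.2% of the members, beside 54.9% of all genes tested. Psmd5 alone was called higher in fetal cells, beside 29% of all genes, and 12 members were called lower. These 12 are 27.9% of the members, which is close to the 25.9% of all genes called lower. Only 3 members, Psme1, Psme2 and Psmg4, were called with a change of more than 2-fold, which is 6.98% of the members beside 23.9% of all genes. The libraries of the groups did not overlap for 18 of 43 members, or 41.9%, beside 62.3% of all genes.

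The median log2 fold change of fetal over adult cells was −0.16 over the 43 members and 0.01 over all genes, and 33 of the 43 values were below 0. The 95% interval of the fold change lay within 1.5-fold in either direction for 31 members, or 72.1%, beside 35.6% of all genes. It lay within 2-fold for 40 members, or 93%, beside 62.4% of all genes. The members' median standard error on the log2 scale was 0.10, beside 0.14 for all genes, so their intervals were also narrower. As CPM, a gene's count relative to a library size scaled by TMM for composition, the 45 members summed to 3060, 2944 and 2705 in the fetal libraries. They summed to 3304, 3574 and 3409 in the adult libraries, and every adult sum was above every fetal sum. Taken alone, the alpha ring, beta ring, lid and caps also summed lower in every fetal library, the caps at 349 to 402 against 549 to 584 CPM. The sums of the 19S ATPases overlapped, at 460 to 505 CPM in fetal and 498 to 578 CPM in adult libraries. Those of Psmd5, Psmd9 and Psmd10 were higher in every fetal library, at 88.7 to 97.4 against 75.8 to 85.2 CPM. In bulk samples such as these, fewer cells of a type and less RNA per cell cannot be told apart.

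**Figure D1:**
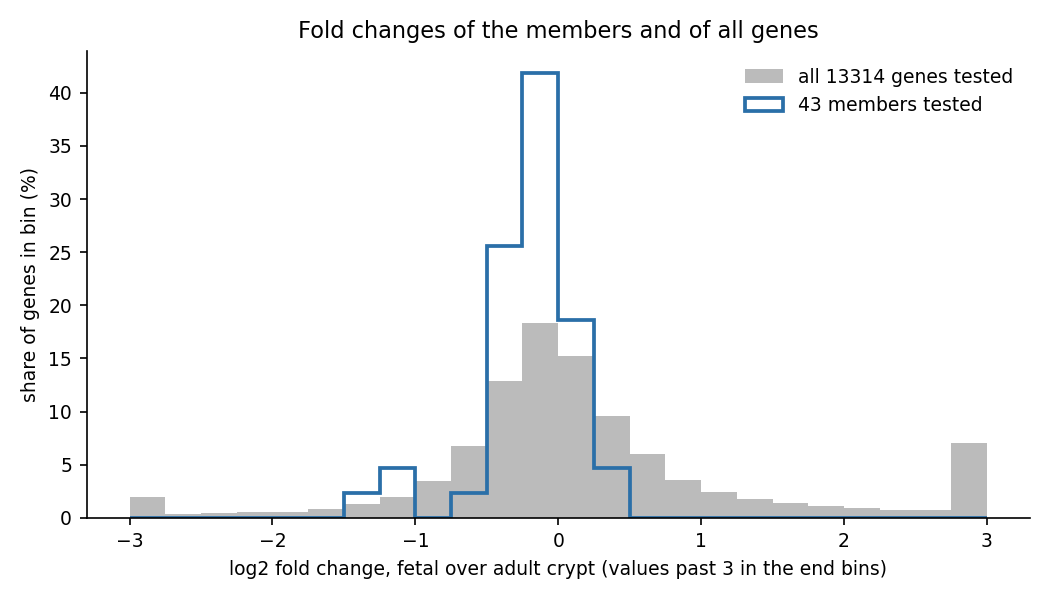
Histogram of the log2 fold change of fetal over adult crypt cells (horizontal axis) as the share of genes in each bin (vertical axis, %), for all 13314 genes tested (grey) and the 43 members tested (line). The members gather near 0, with a median of −0.16, and only 3 lie beyond a 2-fold change.

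Total counts were 7888998 to 10538004 in the fetal libraries and 5795518 to 6045113 in the adult libraries. Fetal replicate 3 stood lowest for the members: only 10 of 43 lay above their fetal mean there, and 34 of 43 did in fetal replicate 1. Adult replicate 1 stood lowest among the adult libraries, also with 10 of 43 above the adult mean. The members' median log2 fold change was −0.12 without fetal replicate 3 and −0.19 without adult replicate 1, where 15 members were called in place of 13. Epithelial markers summed to 4633 to 4710 CPM in fetal and 6838 to 7266 CPM in adult libraries, and 6 of 7 were called lower in fetal cells. The 3 markers of the adult crypt summed to 86.6 to 128 and 6546 to 8960 CPM. Markers of exocrine pancreas summed to 677 to 1516 CPM in fetal and 3.01 to 4.75 CPM in adult libraries, with Prss2 and Amy2a5 at 0 counts in adult cells. Mesenchymal markers, of which 7 of 8 were called higher in fetal cells, summed to 133 to 184 CPM against 6.40 to 14.0 CPM, with Sparc and Lum at 0 counts in adult cells. Erythroid markers, of which the table holds 3 of 5, summed to 31.1 to 53.9 CPM against 0.509 to 1.38 CPM, with Hbb-bt and Hba-a1 at 0 in adult cells. Endothelial markers summed to 1.5 to 6.86 CPM in fetal and 0.864 to 1.70 CPM in adult libraries, with Cdh5 and Kdr at 0 in adult cells. The 6 immune markers summed to 20.8 to 22.3 CPM in fetal and 20.5 to 23.7 CPM in adult libraries. Of the 3 that were tested, Laptm5 and Csf1r were called higher in fetal cells and Itgam lower. The part of these other cell types in the members' values was not tested.

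The alpha ring forms the gated entrance of the barrel. Of its 7 genes, Psma1 to Psma7, Psma4 and Psma1 were called lower in fetal cells and none was called higher. Psma4 measured 112, 105 and 89.9 CPM in the fetal libraries and 136, 141 and 125 CPM in the adult libraries. Every fetal value was below every adult value, and Psma4 fell by 0.39 on the log2 scale (standard error 0.10, adjusted p = 4.24e-03, edgeR). Some 9.79% of the exon bases of Psma4 overlap AY074887 on the opposite strand, and 25.6% of its 50-base windows recur in the processed pseudogene Gm6542. Psma1 fell by 0.25 (adjusted p = 0.0307, edgeR), and it lost its call when any library but adult replicate 1 was left out (adjusted p 0.0606 to 0.0900). That call was also lost with DESeq2 (adjusted p = 0.0871) and with library size only (adjusted p = 0.0774, edgeR). The other 5 alpha genes had log2 fold changes of −0.18 to 0.17 and were not called.

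The beta ring carries the active sites. Psmb5 holds the chymotrypsin-like site, Psmb6 the caspase-like site and Psmb7 the trypsin-like site. Psmb5 (chr14:54614120-54617995, GRCm38) measured 24.3, 27.1 and 21.7 CPM in fetal and 18.7, 23.9 and 27.5 CPM in adult libraries. These groups overlapped, with a log2 fold change of 0.06 (95% interval −0.28 to 0.39, adjusted p = 0.786, edgeR). Psmb7 measured 35.3, 30.8 and 30.1 CPM in fetal and 37.3, 34.3 and 37.2 CPM in adult libraries, and these groups overlapped too. Its log2 fold change was −0.18 (95% interval −0.42 to 0.06, adjusted p = 0.197, edgeR). Of the exon bases of Psmb7, 34.9% overlap Nek6 on the opposite strand, and 28.1% of its 50-base windows recur in Nek6. The effect of this overlap on the values of Psmb7 was not tested. Psmb6 (chr11:70525324-70527858) measured 105, 109 and 98.1 CPM in fetal and 112, 128 and 125 CPM in adult libraries. All fetal values of Psmb6 were below the adult values, and it fell by 0.23 (standard error 0.09, adjusted p = 0.0397, edgeR). That call was lost when any library but adult replicate 1 was left out (adjusted p 0.0610 to 0.146), and also with DESeq2 (adjusted p = 0.0836). The intervals of Psmb5 and Psmb7 do not show that these genes were equal in both groups, and they leave room for changes of up to 0.42 on the log2 scale.

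Proteasome genes as a group are known to be raised by the transcription factor NFE2L1 through antioxidant response elements, so the promoters of the members were searched for their core. The letters searched were TGACNNNGC on either strand, in windows from 250 bases before to 50 bases after a transcript start in RefSeq (GRCm38.p6). Of 45 members, 37 had a promoter in the table, with 40 windows in all, of which 30 sat at the outer start of the gene and 10 at another start. The core was in a window of 6 of these 37 genes, which is 16.2% beside 14% of 27025 genes. The 6 are Psmb5, Psmb6, Psmc6, Psmd9, Psmd12 and Psme4. CCAAT, searched in the same way, was in 13 of 37 members, or 35.1%, beside 41.1% of all genes. The stretch before the start of Psmb5 (chr14:54618008-54618067, minus strand) is shown because Psmb5 is an active-site gene whose core lies before the outer start of the gene. The core is in capitals.
Psmb5: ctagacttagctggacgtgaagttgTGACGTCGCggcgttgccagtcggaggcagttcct
The core begins 47 bases before the start of Psmb5. In Psmb6 the window sat at a start 33 bases inside the gene, and the core begins 9 bases before that inner start, so it lies within the gene as positioned above. Nfe2l1 itself measured 197 ± 6.83 CPM (SD, n = 3) in fetal and 204 ± 21.6 CPM in adult cells and was not called (log2 fold change −0.05, adjusted p = 0.642, edgeR).

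Among the structural beta subunits, Psmb4 showed the largest difference of the 20S core. Psmb4 (chr3:94884324-94886958) measured 53.6, 49.3 and 46.8 CPM in fetal and 70.2, 78.9 and 76.8 CPM in adult libraries. The groups were well apart, and Psmb4 fell by 0.60 on the log2 scale (standard error 0.10, adjusted p = 1.57e-04, edgeR), so its adult level was 1.51-fold its fetal level. None of its 50-base windows recurs in another annotated gene. Psmb3 had a log2 fold change of −0.47 and was not called (95% interval −0.93 to −0.01, adjusted p = 0.0783, edgeR). It was called when fetal replicate 1 or adult replicate 1 was left out (adjusted p = 0.0335 and 0.0475). Psmb1 and Psmb2 had log2 fold changes of −0.14 and 0.06 and were not called.

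The ATPase ring of the 19S particle unfolds substrates and drives them into the barrel. Of its 6 genes only Psmc3 was called, lower in fetal cells by 0.36 on the log2 scale (standard error 0.09, adjusted p = 5.50e-03, edgeR). Psmc1, Psmc2, Psmc4, Psmc5 and Psmc6 had values of −0.20 to 0.04 and were not called. All 6 ATPase genes had a 95% interval within 1.5-fold in either direction.

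The base of the 19S particle also holds the scaffolds Psmd1 and Psmd2 and the ubiquitin receptor Psmd4. Psmd4 measured 153, 149 and 119 CPM in fetal and 181, 189 and 200 CPM in adult libraries. No fetal value reached the lowest adult value, and Psmd4 fell by 0.44 on the log2 scale (standard error 0.10, adjusted p = 2.49e-03, edgeR). Psmd1 and Psmd2 had log2 fold changes of −0.14 and −0.21 and were not called. Psmd2 was called when adult replicate 1 was left out (log2 fold change −0.28, adjusted p = 0.0484).

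The lid of the 19S particle removes ubiquitin chains through Psmd14, a metalloprotease. Of the 8 lid genes, Psmd13 and Psmd3, both structural, were called lower in fetal cells. Psmd13 measured 52.5, 46.8 and 42.1 CPM in fetal and 64.3, 67.0 and 64.0 CPM in adult libraries. These values did not overlap, and Psmd13 fell by 0.47 (standard error 0.10, adjusted p = 1.74e-03, edgeR). Some 17.2% of its exon bases overlap Sirt3 on the opposite strand, and whether the authors counted by strand is not given in the sources used here. Psmd3 fell by 0.33 (adjusted p = 9.64e-03, edgeR), and by 0.23 without fetal replicate 3, where it was not called (adjusted p = 0.0517). Psmd14 had a log2 fold change of −0.01 (95% interval −0.28 to 0.26), and the other 5 lid genes had values of −0.23 to 0.07 and were not called.

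Psmd5, Psmd9 and Psmd10 encode chaperones that hold the ATPases apart from the barrel while the base is put together. Psmd5 (chr2:34852087-34870965) was the only member called higher in fetal cells. It measured 64.1, 52.4 and 53.4 CPM in fetal and 41.2, 46.0 and 39.2 CPM in adult libraries. Every fetal value was above every adult value, and the log2 fold change was 0.43 (standard error 0.11, adjusted p = 6.13e-03, edgeR), which is a 1.34-fold difference. Psmd5 was called higher under each of the 13 alternatives, with log2 fold changes of 0.34 to 0.49. Psmd10, known as gankyrin, had a log2 fold change of 0.27 and Psmd9 one of −0.26, and neither was called.

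**Figure D2:**
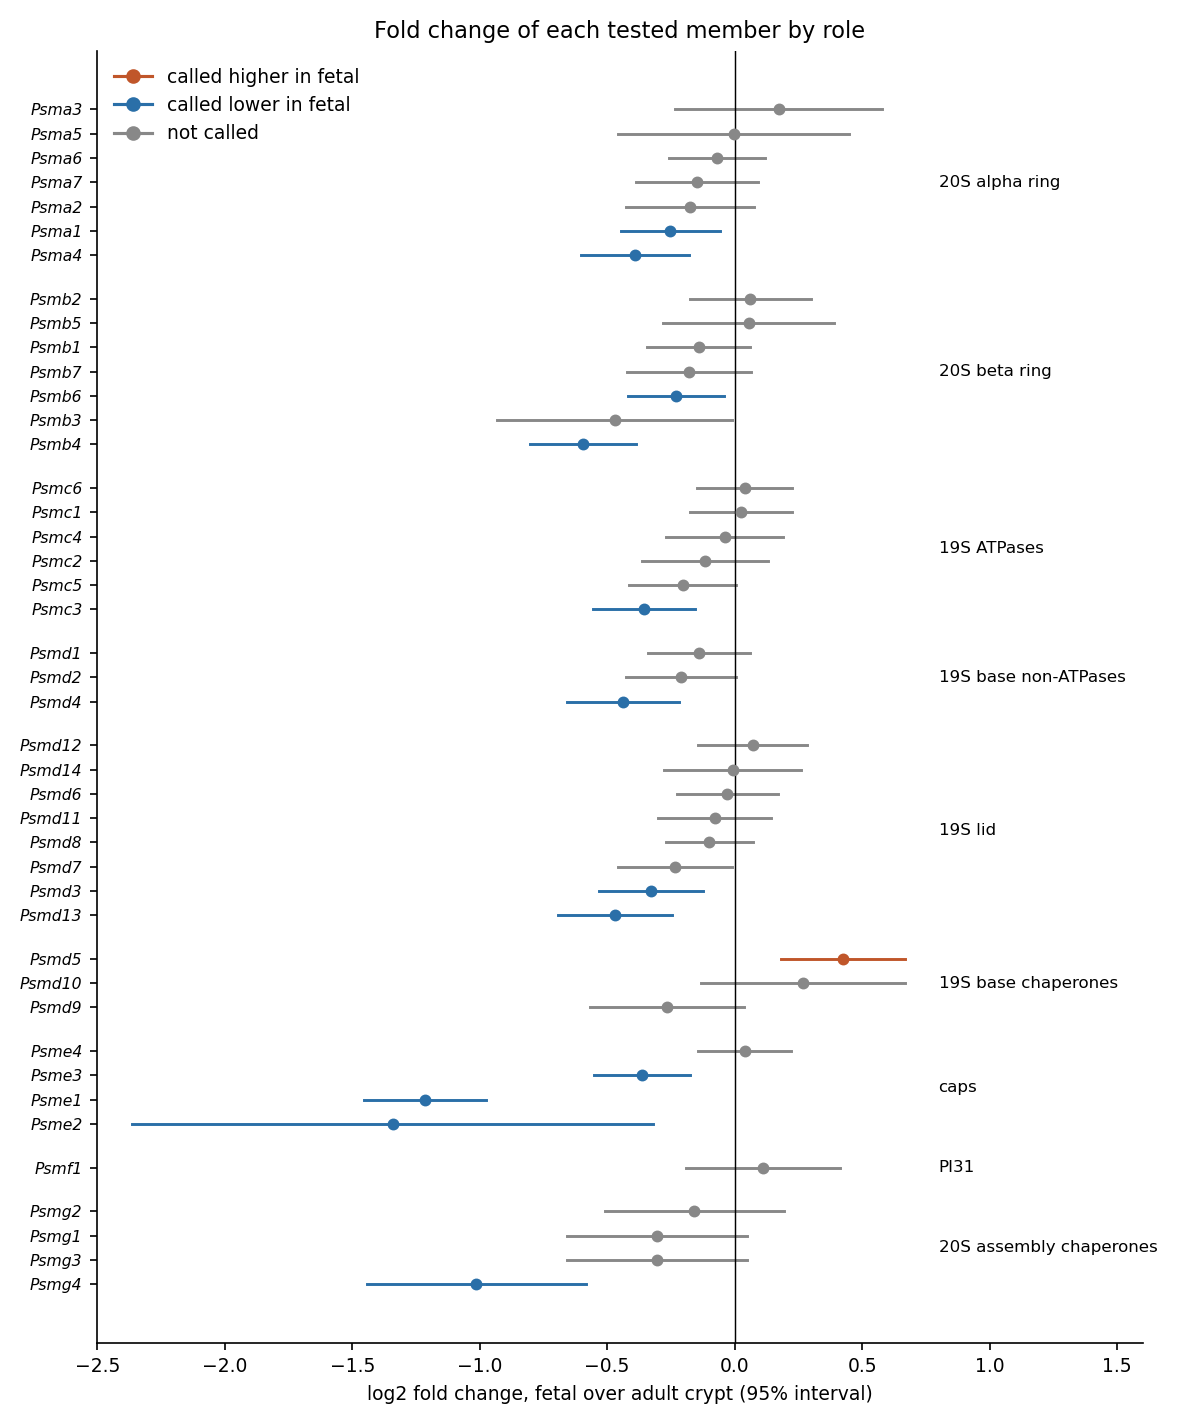
Log2 fold change of fetal over adult crypt cells (horizontal axis) for each of the 43 members tested, grouped by role, with 95% intervals as lines and points coloured by call. Psme1, Psme2 and Psmg4 lie beyond −1, Psmd5 is the only member called higher, and the others lie between −0.60 and 0.27.

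The caps are activators that open the barrel. Psme1 (chr14:55578494-55581527), the alpha chain of the interferon-inducible cap, showed the largest difference apart from Psme2, which had very few counts. It measured 121, 136 and 98.4 CPM in the fetal libraries and 266, 264 and 294 CPM in the adult libraries. The lowest adult value was above the highest fetal value, and Psme1 fell by 1.21 on the log2 scale (standard error 0.11, adjusted p = 1.05e-06, edgeR). Its adult level was 2.32-fold its fetal level, and it was called lower under each of the 13 alternatives, with log2 fold changes of −1.32 to −1.08. Of its 50-base windows, 85.9% are found in no other annotated gene.

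Psme2 (chr14:55587440-55591101) encodes the beta chain that assembles with Psme1 in the same ring. Its counts were very low, at 9, 3 and 20 in the fetal libraries and 23, 12 and 17 in the adult libraries. These are 1.12, 0.374 and 1.87 CPM against 4.07, 2.04 and 2.94 CPM, with no overlap. Psme2 fell by 1.34 on the log2 scale (standard error 0.47, adjusted p = 0.0281, edgeR). The call was lost without fetal replicate 1, fetal replicate 2, adult replicate 1 or adult replicate 3 (adjusted p 0.0518 to 0.121, log2 fold changes −1.36 to −0.96).

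This value is uncertain because a copy of Psme2 without introns, Psme2b on chr11:48945345-48946410, is nearly identical to it. In the principal transcripts of GENCODE vM21, 5 of 717 coding bases differ, and 59.3% of the 50-base windows of Psme2 recur in Psme2b. The ninth exon of Psme2 (chr14:55588040-55588094, minus strand, GRCm38) and the matching stretch of Psme2b (chr11:48945567-48945621, minus strand) are shown because they hold 2 of those 5 differences, which are in capitals.
Psme2: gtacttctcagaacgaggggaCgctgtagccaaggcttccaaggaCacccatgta
Psme2b: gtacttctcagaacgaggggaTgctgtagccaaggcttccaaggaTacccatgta
Psme2b had 403, 431 and 434 counts in the fetal and 880, 940 and 1208 counts in the adult libraries, far more than Psme2. How reads that match both genes were assigned is not given in the sources used here. With the counts of both genes summed, an alternative chosen after seeing the data, the values were 51.4, 54.1 and 42.6 CPM in fetal and 160, 162 and 212 CPM in adult libraries. The summed level was lower in every fetal library and fell by 1.85 on the log2 scale (standard error 0.13, adjusted p = 6.81e-08, edgeR).

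Psme3 encodes the gamma cap of the nucleus, and Psme4 the large cap PA200. Psme3 measured 110, 112 and 109 CPM in fetal and 138, 156 and 132 CPM in adult libraries. The groups did not overlap, and Psme3 fell by 0.36 on the log2 scale (standard error 0.09, adjusted p = 3.03e-03, edgeR). Psme4 had a log2 fold change of 0.04 (95% interval −0.14 to 0.22) and was not called. Psmf1, which encodes the proteasome inhibitor PI31, had one of 0.11 and was not called.

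The Psmg genes encode chaperones that guide the assembly of the barrel, with Psmg3 and Psmg4 acting as a pair on the alpha ring. Psmg4 (chr13:34162964-34178172) measured 14.3, 15.3 and 9.47 CPM in the fetal libraries and 21.6, 25.3 and 31.5 CPM in the adult libraries. No fetal value reached the adult range, and Psmg4 fell by 1.01 on the log2 scale (standard error 0.20, adjusted p = 7.57e-04, edgeR), so its adult level was 2.02-fold its fetal level. Psmg3, its partner, had a log2 fold change of −0.31 and was not called (adjusted p = 0.130, edgeR), except when adult replicate 1 was left out (adjusted p = 0.0188). Some 26.8% of the exon bases of Psmg3 overlap Gm26938 on the same strand. Psmg2 held the median of all members, with 13.5, 15.7 and 12.7 CPM in fetal and 14.8, 14.4 and 17.3 CPM in adult libraries. These overlapping values gave a log2 fold change of −0.16 (95% interval −0.51 to 0.19). Psmg1 had a log2 fold change of −0.30 and was not called.

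**Figure D3:**
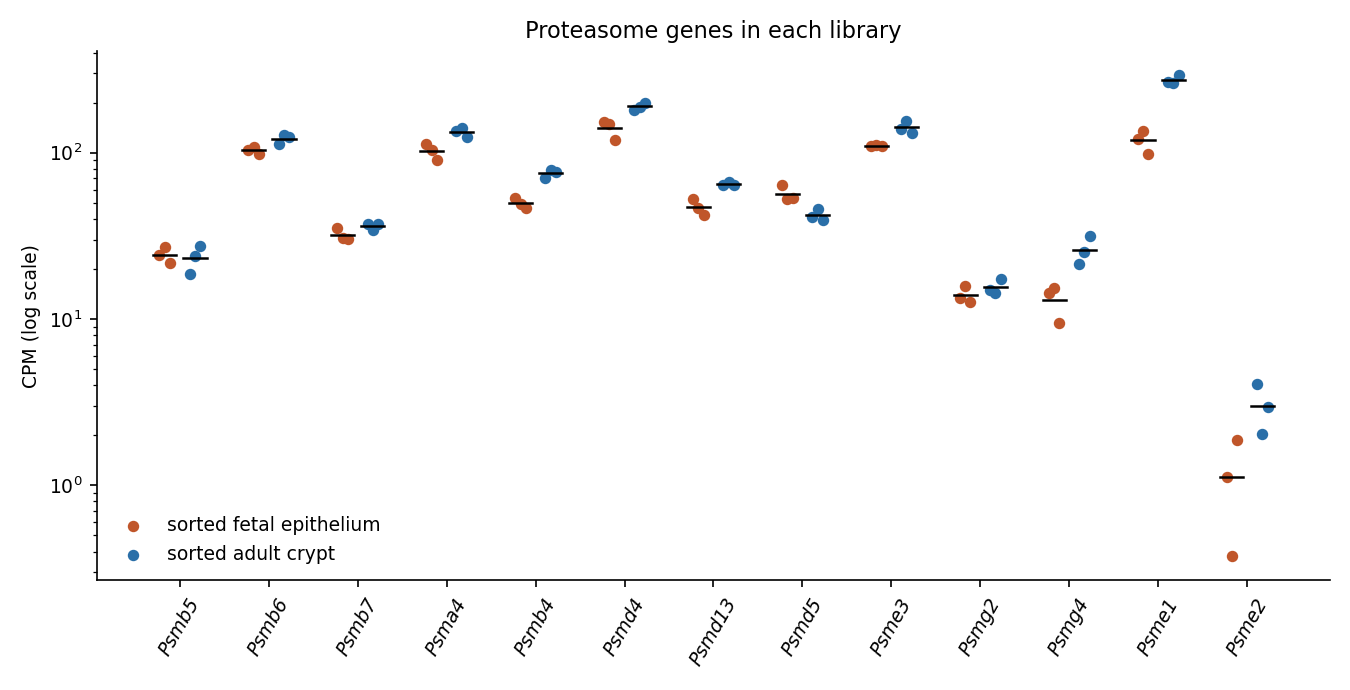
CPM on a log axis (vertical) in each of the 3 fetal and 3 adult crypt libraries (points) with the mean of each group (bars), for the 13 members whose values are given per library. Psme1 and Psmg4 are about 2-fold apart without overlap, Psmb5, Psmb7 and Psmg2 overlap, and Psmd5 is higher in every fetal library.

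The promoters were also searched for the core of the interferon-stimulated response element and for the STAT site, both chosen after the fold changes were known. The first was spelled GAAA, any 2 bases and GAAA again, and the second TTCNNNGAA, both on either strand, in the same 300-base window. The interferon core was in 5 of 37 members, or 13.5%, beside 3.99% of 27025 genes, and TTCNNNGAA was in 2 of 37, or 5.41%, beside 9.55%. The 5 members with the interferon core are Psme1, Psmg4, Psmd4, Psmb3 and Psmd9. Of these, Psmb3 and Psmd9 were not called (adjusted p = 0.0783 and 0.127, edgeR). The matches in the 3 that were called are shown with 30 bases of RefSeq sequence (GRCm38.p6). They are Psme1 and Psmg4, 2 of the 3 members with changes over 2-fold, and the ubiquitin receptor Psmd4. These 3 were picked by their calls, so the display cannot tell whether the core goes with a change. The match is in capitals, and TTTC, 2 bases and TTTC is the same core read on the other strand.
Psme1: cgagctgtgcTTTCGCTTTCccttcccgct
Psmg4: gcgcgcatctGAAAGTGAAAgagcgttccg
Psmd4: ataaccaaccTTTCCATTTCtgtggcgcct
The stretch of Psme1 is chr14:55578493-55578522 on the plus strand, and its match begins 10 bases into the transcribed part. That of Psmg4 is chr13:34162969-34162998 on the plus strand, with the match 16 bases into the transcribed part. That of Psmd4 is chr3:95042675-95042704 on the minus strand, with the match 80 bases before the start. No interferon core was found in the windows of Psme2, the third member with a change over 2-fold. None was found in those of the immunoproteasome genes Psmb8 and Psmb9 either. TTCNNNGAA does occur in Psmb8, beginning 97 bases before its start. The 2 members that hold TTCNNNGAA are Psmd2 and Psmg1, and neither was called. The matches are a description of letters, and binding was not measured here.

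Psma8 and Psmb11, which replace Psma7 and Psmb5 in the proteasomes of testis and thymus, were not tested because their counts were too low. Psma8 had 0, 0 and 2 counts in the fetal and 0 in each adult library. Psmb11 had 2 counts in each fetal library and 0 in each adult library. A total of 0 counts over the adult libraries allows a level of up to 0.173 CPM, computed as 3 counts over the group for counting error only, and no fold was computed. By comparison Psma7 measured 68.8 ± 9.83 CPM (SD, n = 3) in the fetal group and 76.0 ± 3.81 CPM in the adult group.

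Levels can be compared between genes only per length, so CPM was divided by the length of the principal transcript in GENCODE vM21. In fetal cells Psmb6 had the highest level of all members at 130 CPM per kb, followed by Psme1 at 107 and Psmd4 at 105 CPM per kb. In adult crypt cells the order began with Psme1 at 247 CPM per kb, followed by Psmb6 at 152 and Psmd4 at 143 CPM per kb. The place of Psme2 in these orders is uncertain, because reads may be shared with Psme2b. By its own counts Psme2 stood at 1.17 CPM per kb in fetal and 3.13 in adult cells. Psme2b, which is not a member, stood at 57.6 and 209 CPM per kb. The fetal libraries spanned 123 to 136 CPM per kb for Psmb6, 88.5 to 122 for Psme1 and 89.4 to 115 for Psmd4, so the ranges of Psme1 and Psmd4 overlapped there. In adult libraries Psme1 spanned 237 to 264 CPM per kb and stood clear of Psmb6 at 140 to 160 CPM per kb. The ranges of Psmb6 and Psmd4 overlapped in adult cells, where Psmd4 spanned 136 to 150 CPM per kb.

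Subunits of the 20S core are needed in equal number in the finished barrel, yet their counts per length spanned 3.64 CPM per kb for Psma3 to 130 for Psmb6 in fetal cells. In adult cells the span was 3.23 to 152 CPM per kb, again from Psma3 to Psmb6. The 17 genes of the 19S particle spanned less, from 21.6 CPM per kb for Psmd11 to 105 for Psmd4 in fetal cells and from 22.8 to 143 in adult cells. The share of sequence found in other annotated genes, which include pseudogenes, overlapping genes and other transcripts, varied with these levels. Psma5, Psmb3 and Psmb5 have under 50% of their 50-base windows to themselves, and their levels were 6.22 to 27.1 CPM per kb in fetal cells. The 8 core genes with at least 90% unique windows spanned 12.4 to 130 CPM per kb. Over the 31 genes of the core and the 19S particle, the rank correlation of the unique share with the level was 0.51 in fetal and 0.54 in adult cells. The correlation of the unique share with the log2 fold change was −0.07, and that of fetal with adult level was 0.95. These correlations are across genes, which share libraries and are not independent replicates. In Psmb5, 49.4% of the windows recur in the pseudogene Gm3375, and the effect of this on its level was not tested. The transcripts taken for Psma3 and Psma2 are long for this family, at 2846 and 2911 bases, and a shorter transcript would give a higher level per length.

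**Figure D4:**
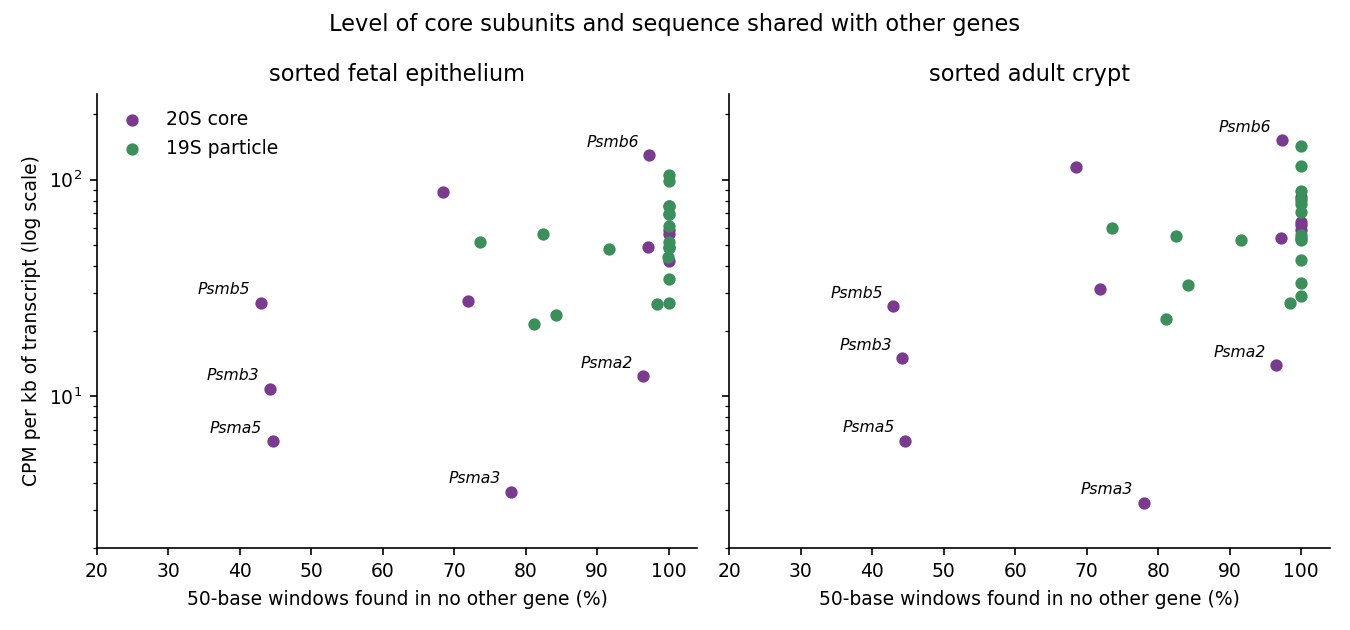
CPM per kb of transcript on a log axis (vertical) against the share of 50-base windows found in no other annotated gene (horizontal, %), for the 14 genes of the 20S core and the 17 of the 19S particle, in fetal (left) and adult crypt cells (right). Psma5, Psmb3 and Psmb5, all under 50% unique, lie below most other genes in both groups, and Psma3 and Psma2 lie low at higher unique shares.

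The immunoproteasome genes Psmb8, Psmb9 and Psmb10 were called lower in fetal cells with larger changes, at log2 fold changes of −5.77, −3.91 and −1.99 (adjusted p = 4.12e-11, 2.86e-09 and 1.45e-08, edgeR). Per length, Psmb8 was 0.0397 to 0.0857 of Psmb5 in the fetal libraries and 3.22 to 4.17 times Psmb5 in the adult libraries, with the level of Psmb5 uncertain as above. Psmb9 was 0.0149 to 0.0237 of Psmb6 in fetal and 0.221 to 0.288 of it in adult libraries, so Psmb6 stayed above it. Psmb10 was 0.353 to 0.422 of Psmb7 in fetal libraries and at least 1.22 times it in each adult library. Psmb7 overlaps Nek6 as given above. On the opposite strand, 15.7% of the exon bases of Psmb9 overlap Tap1 and 11.4% of those of Psmb8 overlap Gm20496. The effect of these overlaps on the ratios was not tested.

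Beyond the members, 33 genes of the pathway were examined and 32 were tested, of which 4 were called higher and 12 lower in fetal cells. Without the 3 immunoproteasome genes, 13 of 29 were called, or 44.8%, beside 54.9% of all genes. Pomp, the maturation factor of the barrel, fell by 0.31 on the log2 scale (85.5 ± 2.39 against 106 ± 1.01 CPM, SD, n = 3, adjusted p = 4.48e-03, edgeR). Usp14, a deubiquitinase bound to the 19S particle, was higher in fetal cells by 0.34 (adjusted p = 6.79e-03, edgeR). Ddi2, the protease that cleaves and activates NFE2L1, fell by 0.37 (adjusted p = 3.39e-03, edgeR). Ubb, which encodes ubiquitin, fell by 0.70 (257 ± 22.6 against 416 ± 37.0 CPM, SD, n = 3, adjusted p = 4.10e-05, edgeR). Uba1, the main ubiquitin-activating enzyme, had a log2 fold change of 0.16 and was not called (adjusted p = 0.0949, edgeR). Adrm1, a ubiquitin receptor of the base, was not called either. The others called higher were the shuttle Ubqln2, the activating enzyme Uba6 and the stress protein Zfand5. Ubqln2 had a log2 fold change of 1.33 (adjusted p = 7.08e-08, edgeR) and Uba6 one of 0.65 (adjusted p = 1.32e-04, edgeR). Both kept their calls under each of the 13 alternatives. Zfand5 had a log2 fold change of 0.56, and without fetal replicate 3 it had one of 0.28 and was not called (adjusted p = 0.177, edgeR). It was not called without adult replicate 3 either (0.37, adjusted p = 0.106). Others called lower included Ecpas, Rad23b, Ubqln1, Nfe2l2 and Nploc4. Ubqln1 lost its call without fetal replicate 2, fetal replicate 3 or adult replicate 2 (adjusted p up to 0.0860, edgeR). Nploc4 lost its call without the same libraries (adjusted p up to 0.0717), and Nfe2l2 without fetal replicate 2 or adult replicate 1 (adjusted p up to 0.0687).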

How the data were processed

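Gene counts of 6 sorted-cell libraries were used, 3 fetal and 3 adult. The deposited values are raw counts per gene: they are whole numbers with a different sum in each library. Build mm10 and edgeR are named in the submitters' processing notes. Aligner, annotation, strand setting and the treatment of reads that match several genes: not given in the sources used here. A stranded low-input total RNA kit (SMARTer Pico) was used for adult libraries, per the labels' protocols.

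Counts were tested with edgeR 4.0.16 in R 4.3.3 (TMM, filterByExpr by group, quasi-likelihood test, group only), with Benjamini-Hochberg adjustment over all 13314 genes and a threshold of 0.05. Standard errors are the log2 fold change divided by the square root of F, an approximation. CPM uses TMM-scaled library sizes. Alternatives were RLE, library size only, DESeq2 1.42.0, other filters, Rn45s left out (7.32% to 10.7% of counts), the replicate number as a block, and each library left out. The procedure was run on simulated counts in which only a small share of genes changed. It therefore does not cover data such as these, in which 54.9% of genes were called. Replicates differed by more than sampling noise (chi-square per degree of freedom at least 4.83).

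Values per library are given for Psmb5, Psmb6, Psmb7, up to 8 called members with the largest change in each direction, the median member, and members with too few counts or a near-identical copy. Members, pathway genes and markers were chosen with earlier results of these data known. Shared 50-base windows and transcript lengths came from GENCODE vM21, and gene positions and promoters from RefSeq GRCm38.p6, matched for 45 and 37 members. Some genes of the pathway list are counted but not reported by name here.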

Additional observations from a re-analysis of the deposited data

How the results depend on the processing

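Under the 13 alternatives, the count of members called lower was 9 to 14, beside 12, and the count called higher was 1 throughout. The share of all genes called in either direction moved too, from 42.4% to 55.7%, beside 54.9%. The lowest share came without a filter on low counts, and DESeq2 gave 43.6%. Leaving out 1 library gave 9 to 14 members called lower, with 48.3% to 52.8% of all genes called in either direction. The members' median log2 fold change was −0.21 to −0.11, beside −0.16, and leaving out 1 library gave −0.21 to −0.12. No called member changed sign. Psmb6, Psma1, Psme2 and Psmd3 lost their calls under 9, 8, 5 and 1 of the 13 alternatives. Psmb3, Psmd2 and Psmg3 gained one when a library was left out. Psme2 was not called with DESeq2 (adjusted p = 0.0520). Zfand5 was not called without fetal replicate 3 (0.28 in place of 0.56, adjusted p = 0.177), without adult replicate 3 (adjusted p = 0.106), with DESeq2 or with the block. The cause was not tested. With library size only, the median of all genes was 0.05, and that of the members −0.11. With the replicate number as a block, 10 members were called lower and 1 higher, and the members' median was −0.16. Psmb6 and Psma1 lost their calls with the block (adjusted p = 0.0651 and 0.0525). Deviations of same-numbered libraries correlated at −0.07, −0.04 and −0.10, so the numbers were not taken to pair the samples. Pathway genes called were 3 higher and 12 lower with the block, 3 to 5 and 9 to 13 over all alternatives. With library size only, Ubqln1 was not called either (adjusted p = 0.0595). Psme2 rests on 32 fetal and 52 adult counts, and how reads shared with Psme2b were assigned is not known. Psma8 and Psmb11 were left out by the filter on low counts.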
